A study of Mus musculus with 6 samples.

Results

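Zic1, Zic4, Etv1 and Gsc are developmental transcription factor genes of the mouse, and the CpG-rich DNA around them was followed in 3 intervals of the mm39 genome. The intervals are 50 kb long around Zic1 and Zic4 on chromosome 9, and 110 kb around Etv1 and 25 kb around Gsc on chromosome 12. They were chosen by the methylation level of 1 CpG in each, called the index CpG here, which had no methylated read in any sample of 1 genotype and methylated reads in all samples of the other genotype. The reverse-strand cytosines of the index CpGs are chr9:91260325 for Zic1-Zic4, chr12:38829685 for Etv1 and chr12:104438833 for Gsc, while all other CpGs are given by their forward-strand cytosine. The members are the CpGs of these intervals that had 10 or more reads, with both strands added, in at least 2 samples of each genotype. There were 374 of them (191 for Zic1-Zic4, 76 for Etv1 and 107 for Gsc) of 864621 such CpGs on the autosomes, and 271 of the 374 had 10 or more reads in all 6 samples. They run from chr9:91233466 to chr9:91276583, from chr12:38827830 to chr12:38911904 and from chr12:104428703 to chr12:104449667. In none of the 3 islands that hold an index CpG did the mean of the neighbouring CpGs differ between Chd8+/- and WT by more than the spread between samples.

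The DNA came from neocortex of mice at postnatal day 5, from 3 samples labelled Chd8+/-, heterozygous for the chromatin remodeller gene Chd8, and 3 samples labelled WT, the wild type. Reduced representation bisulfite sequencing (RRBS) was used: the enzyme MspI cuts at CCGG and bisulfite converts unmethylated cytosines, so that a cytosine still read as cytosine counts as methylated. The methylation level of a CpG is the percent of its reads that were methylated. The labels do not give the Chd8 allele, the strain, or whether samples came from separate animals, so p-values measure only the spread between these samples, which may be technical. Expression was not measured in these libraries, so neither the tissue label nor the Chd8 genotype was checked here.

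Zic1 and Zic4 encode zinc finger proteins of the Zic family and lie beside each other, and they are known for roles in the dorsal neural tube and the cerebellum. Etv1, also called Er81, encodes an ETS-family transcription factor and is a marker of layer 5 projection neurons in the cortex. Gsc, goosecoid, encodes a homeobox repressor known from the gastrula organizer and from craniofacial development. CpG-rich starts of such genes are usually unmethylated, and in many tissues where the genes are silent they are covered by Polycomb marks rather than DNA methylation.

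The promoter letters of Etv1 and Gsc are shown because their index CpGs lie near the gene starts, and because they show which CpGs an MspI library reads. Both are the 250 bases before a gene start in RefSeq for GRCm38.p6, written 5′ to 3′ along the gene's strand. Capitals mark each CG listed in at least 1 library. The letters were placed on mm39 by the spacing of the listed CpGs alone, which put Etv1 on the forward strand at chr12:38829831-38830080 and Gsc on the reverse strand at chr12:104439496-104439745.
Etv1: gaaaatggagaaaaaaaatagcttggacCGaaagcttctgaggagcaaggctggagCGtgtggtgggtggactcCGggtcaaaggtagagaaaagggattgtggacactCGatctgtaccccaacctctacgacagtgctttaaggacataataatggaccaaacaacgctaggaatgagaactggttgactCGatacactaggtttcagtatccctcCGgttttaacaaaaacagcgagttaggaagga
Gsc: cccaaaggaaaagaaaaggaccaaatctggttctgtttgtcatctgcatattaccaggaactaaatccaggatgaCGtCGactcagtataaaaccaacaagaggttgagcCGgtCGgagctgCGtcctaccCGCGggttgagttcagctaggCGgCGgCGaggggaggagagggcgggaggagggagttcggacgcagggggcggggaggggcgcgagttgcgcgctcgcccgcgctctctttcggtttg
Counting also the 50 bases after the start, all 6 CpGs listed in the Etv1 window and all 10 in the Gsc window fell on a CG of the letters. The next best placement on chromosome 12 matched 3 CpGs for Etv1 and 5 for Gsc. By this placement the Etv1 index CpG lay 397 bp upstream of the placed Etv1 start. The Gsc index CpG lay 663 bp downstream of the Gsc start. A further Etv1 start of RefSeq, with 3 CGs in its window, could not be placed. Its best placement matched 2 CpGs and so did the next best. The Zic1 window matched 11 of 11 listed CpGs, against 6 for the next best, and put the Zic1-Zic4 index CpG 12503 bp upstream of the Zic1 start, while Zic4 could not be placed. The letters hold 9 CGs for Etv1, of which 6 were read in all 6 samples, and 22 for Gsc, of which 3 were. The MspI motif CCGG, which reads the same on both strands, stood 2 times in the Etv1 letters and 1 time in those of Gsc. It stood at least once in 47.1% of the 32851 RefSeq promoters over the same 250 bases. A match of letters is a description and not a site or a cause.

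Summed coverage over listed cytosines was 32285980 to 39820333 in the Chd8+/- libraries and 45498222 to 54818138 in the WT libraries, with a median coverage per cytosine of 20 to 24 in all 6. No cytosine with under 10 reads is listed. A strand or sample without a listed cytosine may thus have had fewer than 10 reads, which were not counted here. The rule of 10 reads therefore asks in effect for 10 reads on 1 strand. Over the 534921 autosomal CpGs read in all 6 samples, the mean level was 48.3% ± 0.614 in Chd8+/- and 47.7% ± 0.0247 in WT (SD, n = 3 each). Cytosines outside CpGs read as unconverted at 0.327% to 0.348% in Chd8+/- and 0.316% to 0.321% in WT.

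The index CpGs were methylated in a few percent of reads at most, and the values below are those that chose the intervals, so they are a description with no test. At the Zic1-Zic4 index CpG, 0 of 331, 0 of 271 and 0 of 237 reads were methylated in Chd8+/- replicates 1, 2 and 3, against 8 of 293, 7 of 372 and 8 of 251 in WT replicates 1, 2 and 3. A count of 0, taken as up to 3 reads of the total, allows a level of up to 0.906%, 1.11% and 1.27% in the Chd8+/- samples, while the WT levels were 2.73%, 1.88% and 3.19%. The exact (Clopper-Pearson) 95% intervals of the WT levels reached down to 1.19%, 0.760% and 1.39%, so the allowed range of the Chd8+/- samples overlaps the intervals of single WT samples. The exact 95% intervals of the Chd8+/- counts reach higher than the 3-read limits, to 1.11%, 1.35% and 1.54%, and the plot of the index CpGs draws these.

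The Etv1 index CpG had the same direction. It had 0 of 287, 0 of 341 and 0 of 289 methylated reads in Chd8+/- replicates 1, 2 and 3, against 7 of 345, 9 of 445 and 6 of 412 in WT. The WT levels were 2.03%, 2.02% and 1.46%, and the Chd8+/- counts allow up to 1.05%, 0.880% and 1.04% by the same 3-read limit and 1.28%, 1.08% and 1.27% by the exact 95% interval.

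The Gsc index CpG had the opposite direction. It had 8 of 525, 5 of 401 and 3 of 319 methylated reads in Chd8+/- replicates 1, 2 and 3, which are levels of 1.52%, 1.25% and 0.940%, against 0 of 385, 0 of 408 and 0 of 456 in WT. The WT counts allow levels of up to 0.779%, 0.735% and 0.658% by the 3-read limit and 0.954%, 0.90% and 0.806% by the exact 95% interval. These limits and intervals cover counting error only, because no molecular identifiers are mentioned and PCR copies of 1 molecule would be counted apart. The shares of unconverted cytosines given above are smaller than every level above 0 at the index CpGs, and their part in these values was not tested.

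**Figure D1:**
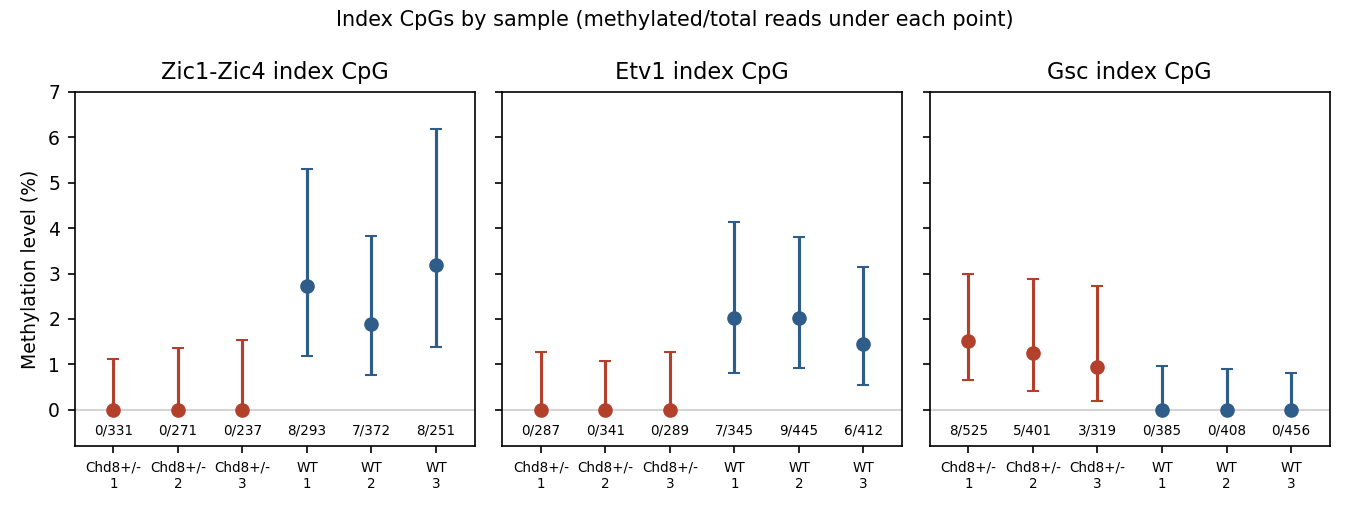
Methylation level in percent (y axis) of the 3 index CpGs in each sample, Chd8+/- in red and WT in blue. Points are the level, bars the exact 95% binomial interval of the reads, and methylated over total reads stand under each point. All 3 Chd8+/- samples are at 0 for Zic1-Zic4 and Etv1 and all 3 WT samples are at 0 for Gsc.

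Across the genome the pattern of the Zic1-Zic4 and Etv1 index CpGs, 0% in all Chd8+/- and above 0% in all WT samples, was held by 1102 of the 534921 CpGs (0.206%). The Gsc pattern, 0% in all WT and above 0% in all Chd8+/- samples, was held by 437 CpGs (0.0817%). All WT libraries had more summed coverage than the Chd8+/- libraries, and 0% is reached more easily at fewer reads. The 1102 and 437 CpGs therefore give no direction by genotype, and the part of depth was not tested. The index CpGs are among the 2846 CpGs with 200 or more reads in all 6 samples. Of those, 8 (0.281%) had the pattern of the Zic1-Zic4 and Etv1 index CpGs and 5 (0.176%) that of Gsc, the index CpGs included.

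The strands of a CpG come from separate reads, so each strand gives its own count. All listed reads of the Zic1-Zic4 index CpG came from the reverse strand. At the Etv1 index CpG, the methylated reads of WT replicates 1 and 2 were all on the reverse strand, with 7 of 211 and 9 of 198 there and 0 of 134 and 0 of 247 on the forward strand. In WT replicate 3 they were all on the forward strand, with 6 of 200 there and 0 of 212 on the reverse strand. No WT sample therefore had methylated reads on both strands of the Etv1 index CpG.

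At the Gsc index CpG the forward strand held most reads. Chd8+/- replicate 1 had 7 of 492 methylated reads on the forward and 1 of 33 on the reverse strand, replicate 2 had 5 of 386 and 0 of 15, and replicate 3 had 0 of 302 and 3 of 17. The 0% of the WT samples rested on 359, 366 and 456 forward reads and on 26, 42 and 0 listed reverse reads. Methylated reads on 1 strand alone were common at such levels. Of 7881 entries of a CpG in a library with 20 or more reads on each strand, 3 to 10 methylated reads and a level under 5%, 6311 (80.1%) had all of them on 1 strand. Chd8+/- replicates 2 and 3 at the Gsc index CpG had too few reverse reads to be among such entries. The Zic1-Zic4 index CpG, listed on 1 strand, is not among them either.

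**Figure D2:**
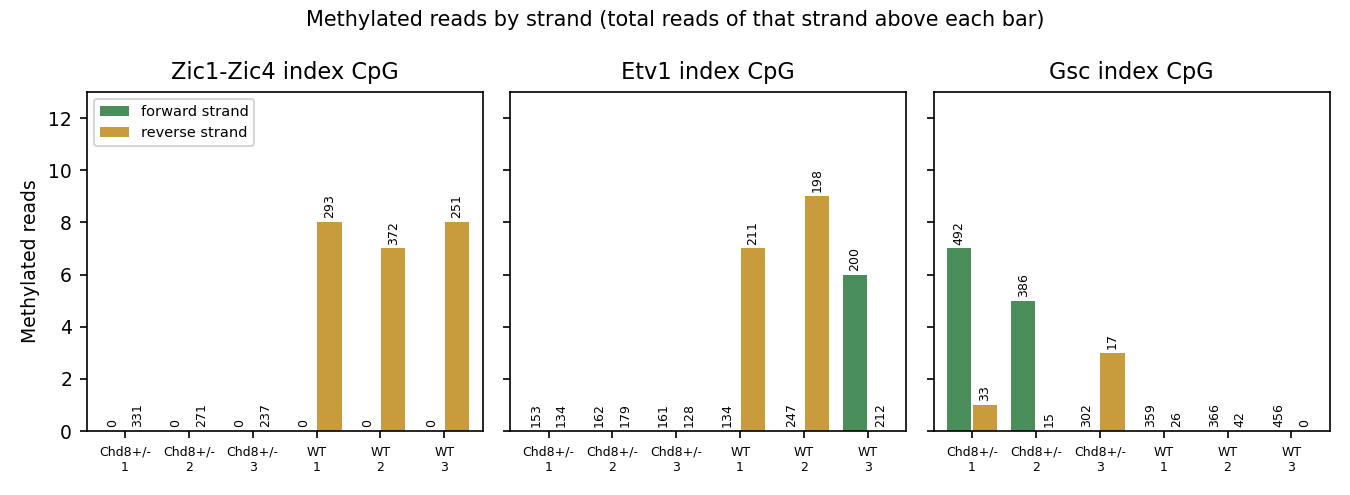
Methylated reads (y axis) on the forward strand in green and the reverse strand in gold at the 3 index CpGs, Chd8+/- samples left of WT samples. The number above each bar is the total reads of that strand. The Zic1-Zic4 index CpG has listed reads on the reverse strand only, and no WT sample has methylated reads on both strands of the Etv1 index CpG.

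CpGs within 100 bp of an index CpG can lie on the same reads, and none of those read in all 6 samples repeated its pattern. Before and after an index CpG mean lower and higher coordinates. In the Zic1-Zic4 island the CpG 14 bp after the index CpG, read on the same reverse strand, had 5 of 318, 8 of 262 and 19 of 226 methylated reads in Chd8+/-, against 0 of 279, 19 of 367 and 33 of 248 in WT. The CpG 24 bp after it had 3 of 335, 6 of 266 and 7 of 235 in Chd8+/-, against 5 of 288, 0 of 372 and 7 of 251 in WT. Both were methylated in all 3 Chd8+/- samples, in which the index CpG was at 0, and both were at 0 in 1 WT sample, a different one each time.

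Around the Etv1 index CpG, the CpGs 24 bp before and 46 bp after it had no methylated read in any of the 6 samples, at 130 to 251 reads each. The CpG 10 bp before it had no methylated read in Chd8+/-, against 3 of 207 in WT replicate 1 and none in WT replicates 2 and 3. The CpG 17 bp after it had 3 of 150 in Chd8+/- replicate 2 and none in Chd8+/- replicates 1 and 3, against none in WT. Each of these CpGs with methylated reads thus had them in 1 library alone.

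Around the Gsc index CpG depth was far lower. The CpG 65 bp before it had 1 of 10, 0 of 38 and 2 of 13 methylated reads in Chd8+/-, against 0 of 27, 4 of 30 and 2 of 36 in WT. The CpG 21 bp before it had none in Chd8+/-, at 15 to 42 reads, against 2 of 43 in WT replicate 1 and none in the other WT samples. The CpGs 57 bp and 6 bp before it were not listed in 1 sample each. The CpG 57 bp before had 1 of 10 and 2 of 11 in Chd8+/- replicates 1 and 3, against 0 of 17, 0 of 30 and 0 of 19 in WT. The CpG 6 bp before had 2 of 31, 0 of 15 and 0 of 17 in Chd8+/-, against 0 of 27 and 0 of 39 in WT replicates 1 and 2. At such depths a level like that of the index CpG cannot be told from 0.

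**Figure D3:**
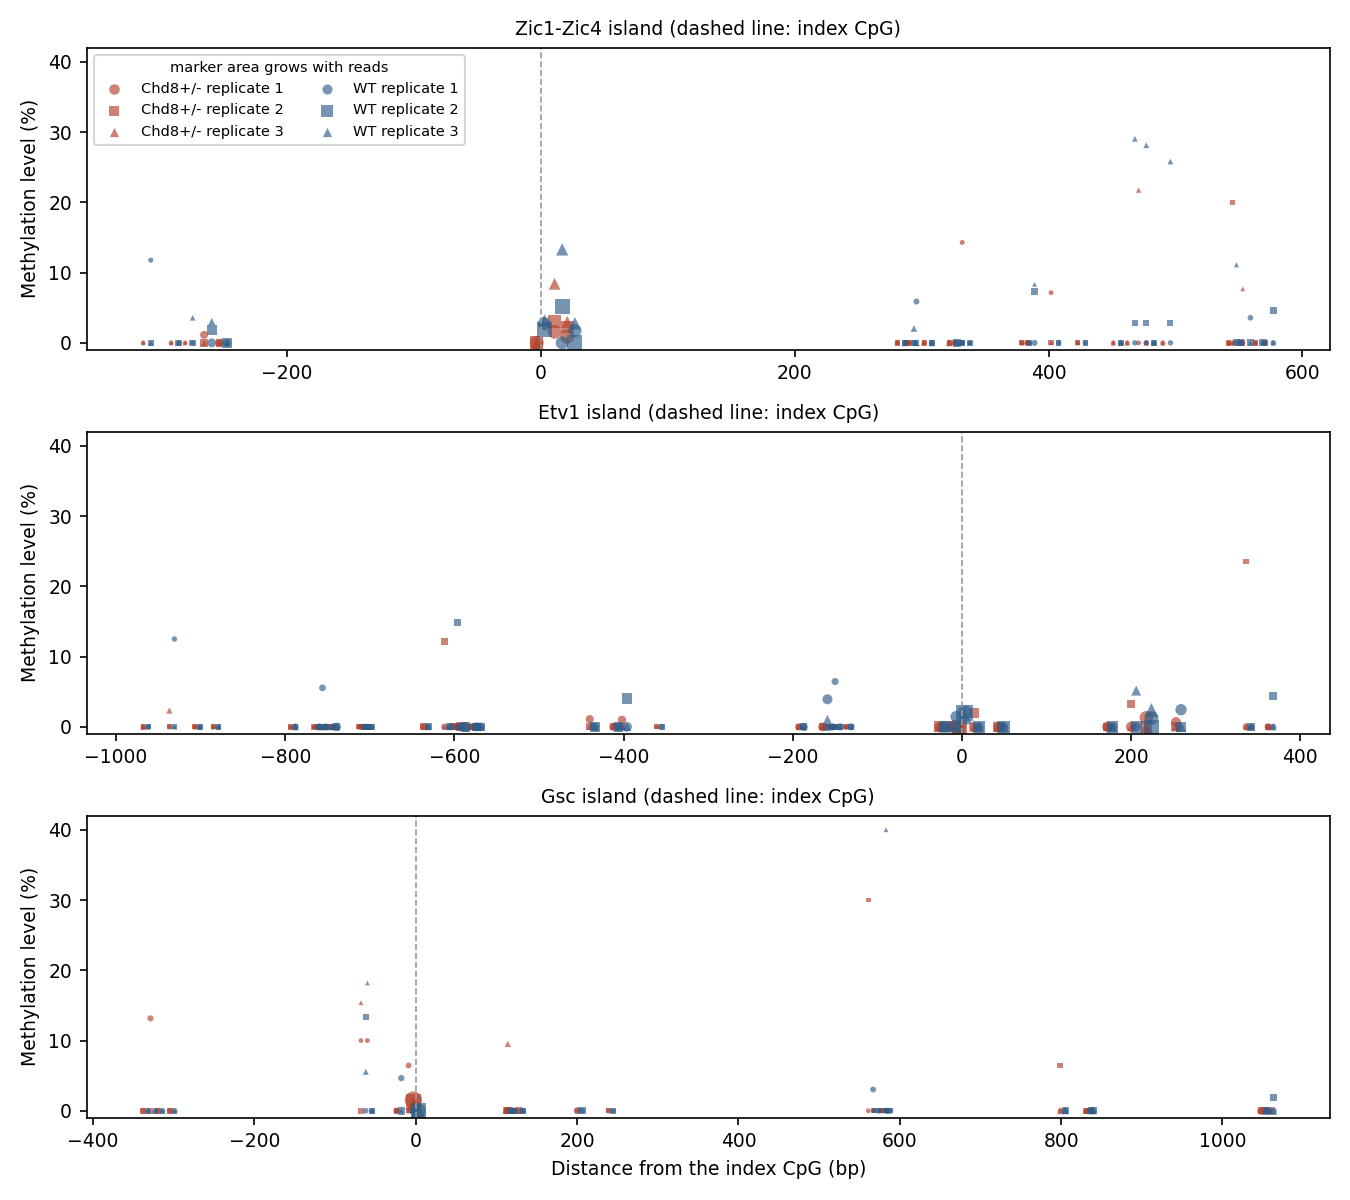
Methylation level in percent (y axis) of every member CpG of the 3 islands against its distance from the index CpG in bp (x axis, dashed line at the index CpG), Chd8+/- in red and WT in blue, marker shape by replicate and marker area growing with reads. Chd8+/- points are drawn 3 bp left and WT points 3 bp right of their place so that they do not hide each other. Most points lie at 0 in both genotypes, and no neighbour read in all 6 samples separates the groups.

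Whether the shift is shared was tested on the other CpGs of each island, which the choice of intervals did not use. An island is a chain of listed CpGs with gaps of at most 250 bp and at least 10 CpGs that pass the coverage rule. The neighbours are its CpGs other than the index CpG with 10 or more reads in all 6 samples, and the sample value is their unweighted mean. The tests are exact two-sided permutation tests over the 6 samples, which cannot go below p = 0.1 for 3 against 3.

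The Zic1-Zic4 island spans chr9:91259944-91260898 and has 18 neighbours. Their mean level was 0.994%, 1.41% and 1.06% in Chd8+/- replicates 1, 2 and 3, against 0.622%, 1.05% and 2.26% in WT. The Chd8+/- samples lay inside the range of the WT samples. The means were 1.15% ± 0.221 in Chd8+/- and 1.31% ± 0.847 in WT (SD, n = 3 each), a difference of -0.16 points (SE 0.506, exact permutation p = 0.9), against -2.60 points at the index CpG. Without WT replicate 3 the neighbour difference was 0.32 points. Over the 28 island CpGs that pass the coverage rule of the members, it was -1.03 points (exact permutation p = 0.9). There each sample is averaged over the CpGs listed in it. Of the 18 neighbours 4 were higher in Chd8+/-, 7 were lower and 7 were equal.

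The Etv1 island spans chr12:38828719-38830049 and has 42 neighbours. Their mean level was 0.0968%, 0.975% and 0.0554% in Chd8+/-, against 0.799%, 0.553% and 0.207% in WT. Chd8+/- replicate 2 was the highest of all 6 samples and Chd8+/- replicates 1 and 3 the lowest. The means were 0.376% ± 0.519 in Chd8+/- and 0.519% ± 0.298 in WT (SD, n = 3 each), a difference of -0.14 points (SE 0.346, exact permutation p = 0.8), against -1.84 points at the index CpG. The difference was 0.016 points without Chd8+/- replicate 3 and 0.113 points over the 20 neighbours with 20 or more reads. Of the 42 neighbours 4 were higher and 11 lower in Chd8+/-, and 27 had no methylated read in any sample.

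The Gsc island spans chr12:104438497-104439892 and has 11 neighbours. Their mean level was 0.909%, 0.587% and 2.26% in Chd8+/-, against 0.423%, 1.38% and 0.505% in WT. The groups overlapped, with Chd8+/- replicate 3 above all others. The means were 1.25% ± 0.890 in Chd8+/- and 0.769% ± 0.531 in WT (SD, n = 3 each), a difference of 0.48 points (SE 0.598, exact permutation p = 0.5), against 1.24 points at the index CpG. Without Chd8+/- replicate 3 it was -0.022 points, and weighted by reads it was 0.067 points (exact permutation p = 1). Over the 24 island CpGs that pass the coverage rule of the members, it was larger, at 0.98 points (exact permutation p = 0.4). There each sample is averaged over the CpGs listed in it. With an SE of 0.598 on the difference of 0.48 points, a shared shift of 1.24 points was not excluded. Of the 11 neighbours 3 were higher, 2 lower and 6 equal.

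**Figure D4:**
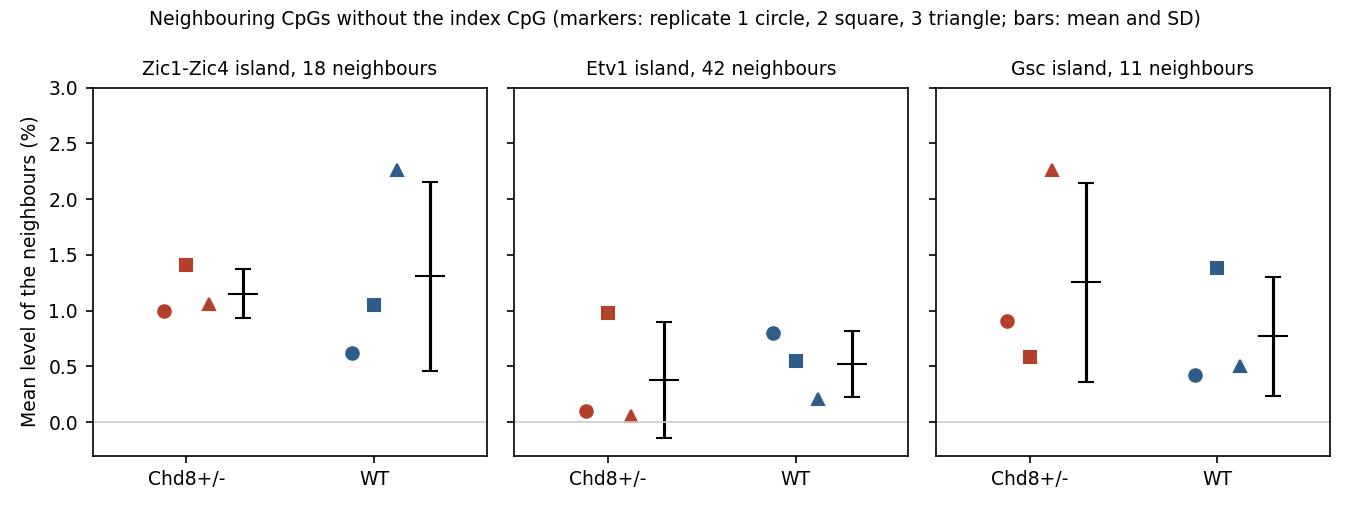
Mean methylation level in percent (y axis) of the neighbours of each island without the index CpG, 1 point per sample (replicate 1 circle, 2 square, 3 triangle), with the group mean and SD (n = 3) in black beside them. The Chd8+/- points in red and the WT points in blue overlap in all 3 islands.

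No neighbour in any of the 3 islands had groups that did not overlap, where 5.8% of the 534921 CpGs of the autosomes read in all 6 samples had such groups (3.48% with Chd8+/- higher and 2.32% lower). A CpG with no methylated read in any sample cannot separate the groups. Such CpGs made up 19.9% of those autosomal CpGs but 38.9% to 64.3% of the neighbours, so the 5.8% is not a matched background. Methylated reads at the neighbours were scattered. In the Zic1-Zic4 island 6 neighbours were methylated in 1 library alone, in the Etv1 island 9 and in the Gsc island 4. Neighbours methylated in all 3 samples of a genotype were found 2 times, both in Chd8+/- in the Zic1-Zic4 island, at the CpGs 14 bp and 24 bp after the index CpG. The neighbours were read less deeply than the index CpGs, with a median of 30.5, 49 and 40.5 reads in the Zic1-Zic4, Etv1 and Gsc islands. A count of 0 at these medians allows a level of up to 9.84%, 6.12% and 7.41%, so a shift of the size of the index CpGs was not detectable at a single neighbour of median depth. Only 2, 1 and 0 neighbours had 200 or more reads in all 6 samples.

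Summing the reads of each island without the index CpG gave the same picture. In the Zic1-Zic4 island 11 of 1084, 18 of 900 and 27 of 882 reads were methylated in Chd8+/-, against 8 of 1183, 28 of 1717 and 46 of 998 in WT. In the Etv1 island the sums were 7 of 2690, 22 of 2444 and 1 of 1974 in Chd8+/-, against 28 of 3611, 19 of 3746 and 17 of 3347 in WT. In the Gsc island they were 1 of 378, 2 of 504 and 6 of 422 in Chd8+/-, against 2 of 467, 5 of 474 and 2 of 502 in WT. WT replicate 3 was the highest sample in the first island, Chd8+/- replicate 2 in the second and Chd8+/- replicate 3 in the third.

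The islands were then set among all islands of the autosomes with edgeR's quasi-likelihood test on methylated and unmethylated reads, Benjamini-Hochberg adjusted. For the Zic1-Zic4, Etv1 and Gsc islands without their index CpGs, the log2 odds ratios of Chd8+/- over WT were -0.06, -0.90 and 0.91, with unadjusted p of 0.947, 0.316 and 0.259 and adjusted p of 1.00 each. None of the 14590 islands tested was called at an adjusted p of 0.05 (0%), while 544 (3.73%) had an unadjusted p under 0.05, 2.25% with Chd8+/- lower and 1.47% with Chd8+/- higher. The limma test also called none and gave 770 at an unadjusted p under 0.05, with the opposite balance of 432 higher and 338 lower in Chd8+/-.

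The 3 intervals held 6 further islands, 4 around Zic1 and Zic4 and 2 around Gsc, and none of them was called. Their mean levels ran from 0% in both genotypes to 6.93% ± 1.66 in Chd8+/- and 6.63% ± 5.49 in WT (SD, n = 3 each) in the Gsc island at chr12:104437307-104438211. In that island WT replicate 3 stood at 12.9%, against 4.51% and 2.53% in the other WT samples and 8.69%, 5.38% and 6.73% in Chd8+/-. The Zic1-Zic4 island at chr9:91244401-91244680 was the only member island with an unadjusted p under 0.05 (0.0437, and 1.00 adjusted, by edgeR), with Chd8+/- lower. The test adds the reads of its 10 CpGs with 10 or more reads in at least 2 samples of each genotype, while the mean levels take the 5 of them read in all 6 samples. Of the methylated WT reads, 5 were at chr9:91244401 and 4 at chr9:91244434 in replicate 3, 5 at chr9:91244410 in replicate 2 and 1 at chr9:91244440 in replicate 1. No listed read was methylated in Chd8+/-, and Chd8+/- replicate 1 had no listed reads at the first 3 of these CpGs.

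Low levels were the rule for islands of this kind. Over the 14361 autosomal islands with CpGs read in all 6 samples the median level was 0.842%, and 66.4% were under 2%. Of the 177942 island CpGs, 52.4% had no methylated read in any of the 6 samples. In the Etv1 island 64.3% of the neighbours had none, in the Zic1-Zic4 island 38.9% and in the Gsc island 54.5%.

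Around the placed gene starts the CpGs within 1 kb were almost unmethylated in both genotypes. At Zic1 the mean over 20 CpGs was 0.893% ± 0.670 in Chd8+/- and 0.982% ± 0.952 in WT. At Etv1 the mean over 25 CpGs was 0.439% ± 0.624 in Chd8+/- and 0.632% ± 0.291 in WT, and at Gsc over 11 CpGs it was 1.25% ± 0.890 in Chd8+/- and 0.769% ± 0.531 in WT (SD, n = 3 each, index CpGs left out). The groups overlapped at all 3 starts. The 11 Gsc CpGs are the neighbours of the Gsc index CpG already given, and the 25 Etv1 CpGs are among the Etv1 neighbours. Their means are thus not separate from the neighbour means.

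In the Etv1 letters shown above, the deepest CpG is the CG of the first CCGG, 176 bp before the start. It was listed on both strands in all 6 libraries, while each of the other 5 was listed on 1 strand in each library. It had 4 of 308, 0 of 214 and 0 of 216 methylated reads in Chd8+/-, against 4 of 323, 0 of 357 and 8 of 334 in WT. The CpG 58 bp before the start had 8 of 34 methylated reads in Chd8+/- replicate 2, the highest level at any neighbour of the Etv1 index CpG, and none in the other 5 samples. In the Gsc letters the 3 CpGs read in all 6 samples had methylated reads in Chd8+/- replicate 2 alone, with 2 of 31 at the CG of the CCGG, 140 bp before the start. The 7 other CGs in capitals were listed in Chd8+/- replicate 3 alone, at 10 or 11 reads and with none methylated.

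Outside the islands the Etv1 interval stood far above the Zic1-Zic4 and Gsc intervals in both genotypes. Outside means every chain with under 10 CpGs that pass the coverage rule, so CpGs close to a gene start can be included. The CpG 21 bp after the Zic1 start is 1 of them. Mean levels under 5% were held by 33 of the 65 Zic1-Zic4 CpGs, 17 of the 29 Gsc CpGs and 1 of the 23 Etv1 CpGs. The contrast therefore depends on which CpGs this definition leaves outside. The 65 Zic1-Zic4 CpGs outside islands averaged 10.4% ± 0.898 in Chd8+/- and 11.0% ± 1.82 in WT, and the 29 Gsc CpGs 14.1% ± 2.60 in Chd8+/- and 12% ± 1.17 in WT. The 23 Etv1 CpGs outside its island averaged 76.7% ± 0.509 in Chd8+/- and 73.5% ± 2.78 in WT (SD, n = 3 each). Etv1 thus combined an almost unmethylated island with highly methylated CpGs further along, where 20 of 23 had a mean level of 50% or more, against 1 of 65 for Zic1-Zic4 and 3 of 29 for Gsc.

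Over whole intervals, again without the index CpGs, the Etv1 groups did not overlap. The mean over its 65 CpGs was 27.4%, 27.7% and 27.1% in Chd8+/-, against 27.0%, 27.0% and 25.0% in WT, a difference of 1.06 points (SE 0.690). Weighted by reads it was 3.59 points (exact permutation p = 0.4). That is more than in either part weighted in this way, with -0.19 points in the island and 1.02 points outside it. The pooled value also depends on how the reads of each sample divide between these parts. It therefore cannot be read as a shift of that size at the CpGs. The exact permutation p of 0.1 is the smallest this design allows, and adjusted over the 6 means tested it was 0.6. The direction did not hold at a minimum of 20 reads, where the difference was -1.48 points over 35 CpGs. Outside the island alone the difference was 3.25 points at 10 reads, 1.65 points without WT replicate 3, 1.02 points weighted by reads and -3.61 points over the 15 CpGs with 20 or more reads. The Zic1-Zic4 interval averaged 5.65% ± 0.264 in Chd8+/- and 5.95% ± 0.961 in WT over 130 CpGs (difference -0.30 points, SE 0.576, exact permutation p = 0.8). The Gsc interval averaged 7.37% ± 1.10 in Chd8+/- and 6.42% ± 1.36 in WT over 73 CpGs (SD, n = 3 each; difference 0.95 points, SE 1.01, exact permutation p = 0.4). Weighted by reads the Gsc difference was 1.63 points (exact permutation p = 0.1, the smallest possible). This value too depends on how the reads of each sample divide between CpGs of low and high level.

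**Figure D5:**
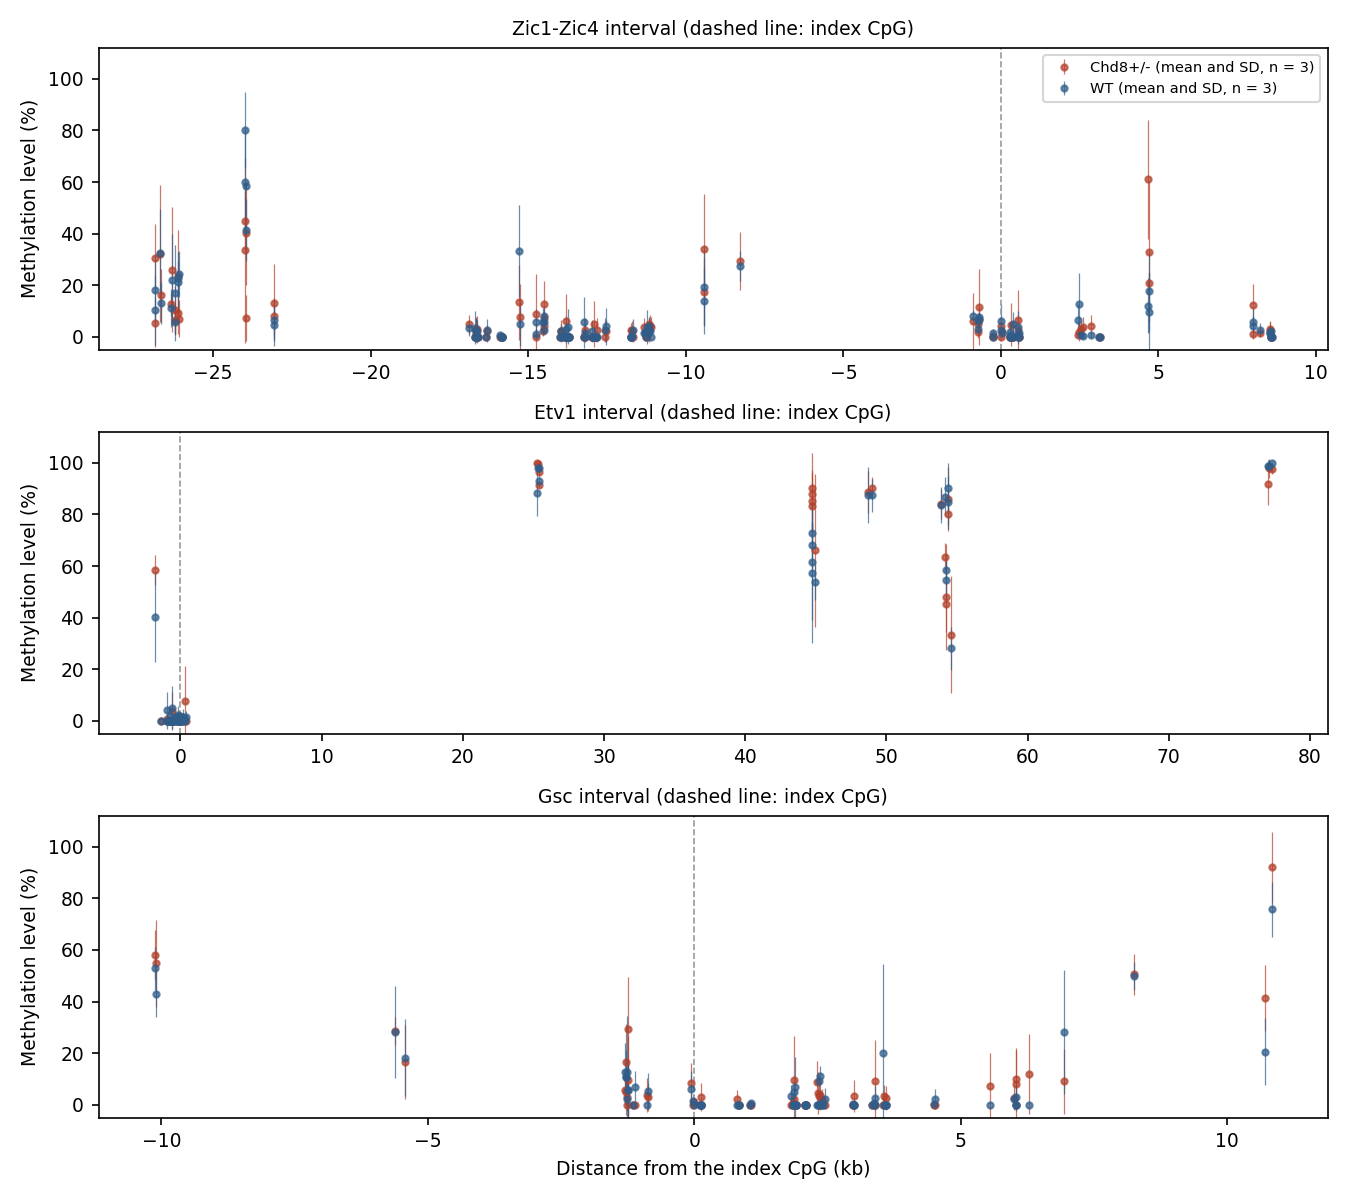
Methylation level in percent (y axis) of the CpGs read in all 6 samples against the distance from the index CpG in kb (x axis, dashed line at the index CpG), as mean and SD (n = 3) of Chd8+/- in red and WT in blue. Levels near 0 crowd around the Etv1 index CpG while the CpGs 25 kb and further away are mostly above 50% in both genotypes.

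Among CpGs with 10 or more reads in all 6 samples, those with the largest differences between genotypes lay outside the index islands. At chr9:91264986, 4662 bp after the Zic1-Zic4 index CpG, the level was 37.8%, 84.0% and 61.5% in Chd8+/-, against 20.5%, 0% and 15.9% in WT, from 25 to 44 reads. Its difference of 49.0 points ran opposite to the index CpG. At chr9:91236339 the level was 56.3%, 33.3% and 45.5% in Chd8+/-, against 90.5%, 63.2% and 86.7% in WT, from 15 to 22 reads, and at chr9:91236370 it was 0%, 5% and 17.4% in Chd8+/-, against 28.6%, 52.4% and 43.8% in WT, from 16 to 23 reads. The groups did not overlap at these 3 CpGs, which were named for their differences.

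In the Etv1 interval the largest differences among CpGs read in all 6 samples were 26.5 points at chr12:38874409, 25.7 points at chr12:38874441 and -23.4 points at chr12:38883851. At chr12:38874409 the level was 96.7%, 70.0% and 97.3% in Chd8+/-, against 72.7%, 76.3% and 35.6% in WT, and the groups overlapped. At chr12:38874441 it was 83.9%, 81.8% and 83.8% in Chd8+/-, against 71.9%, 74.4% and 26.1% in WT, with WT replicate 3 again far below the other samples. At chr12:38883851 it was 66.7%, 66.7% and 57.1% in Chd8+/-, against 84.9%, 80.6% and 95.2% in WT, and here the WT samples were all higher. Chd8+/- replicate 2 had only 10 and 11 reads at the first of these CpGs and at the next.

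In the Gsc interval, again among CpGs read in all 6 samples, they were 23.4 points at chr12:104437589, 20.7 points at chr12:104449548 and -20.0 points at chr12:104442374. The last rests on WT replicate 3, which had 12 of 20 methylated reads against none in the other 5 samples. The groups overlapped at all 3. CpGs not read in every sample gave larger differences in the Gsc and Etv1 intervals. In the Zic1-Zic4 interval the largest of them was -37.1 points, smaller in size than the 49.0 points at chr9:91264986. The CpG with the largest such difference in each interval is named here after its values were seen. At chr12:104437798 in the Gsc interval, 8 of 26 and 14 of 14 reads were methylated in Chd8+/- replicates 1 and 3, against 1 of 30, 0 of 33 and 0 of 45 in WT (unadjusted p = 0.00807 and adjusted p = 1.00 by edgeR). At chr12:38874601 in the Etv1 interval, 0 of 12 and 0 of 25 were methylated in Chd8+/- replicates 1 and 2, against 8 of 30 and 16 of 28 in WT replicates 1 and 3. At chr9:91246873 in the Zic1-Zic4 interval, 0 of 15 and 2 of 12 were methylated in Chd8+/- replicates 1 and 3, against 0 of 22 and 10 of 11 in WT replicates 1 and 3.

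Among CpGs read in all 6 samples, the highest mean levels were 98.8% at chr12:38855045, 98.8% at chr12:38906969 and 98.3% at chr12:38906755 in the Etv1 interval. In the Gsc interval the same ranking gave 83.9% at chr12:104449667, 55.5% at chr12:104428703 and 50.2% at chr12:104447079, and in the Zic1-Zic4 interval 62.6%, 49.4% and 46.7% at chr9:91236339, chr9:91236364 and chr9:91236329. The groups overlapped at 8 of these 9 CpGs. The exception was chr9:91236339, where WT was higher in every sample.

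Tested CpG by CpG, no member was called. Of the 374 members, 144 were at 0% or at 100% in every sample that read them and could not be tested, and 230 were tested among 609673 autosomal CpGs with edgeR's quasi-likelihood test. None of all CpGs passed a Benjamini-Hochberg adjusted p of 0.05 (0%), and the lowest value was 0.234. The limma test called none either, with 18394 CpGs (3.02%) at an unadjusted p under 0.05 by edgeR and 31183 by limma. The index CpGs had the adjusted p of 0.234 themselves, which only restates the values that chose them. Under the other settings tried, their adjusted p ran from 0.189 to 1.

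Of the 227 tested members other than the index CpGs, 10 (4.41%) had an unadjusted p under 0.05, against the 3.02% of all CpGs. Of the 10, 6 were higher in Chd8+/- and 4 lower, while 1.75% of all CpGs were higher and 1.27% lower at that p. All 10 had an adjusted p of 1.00. In the Etv1 island the only one was the CpG 17 bp after the index CpG, with an unadjusted p of 0.0461 by edgeR. It was higher in Chd8+/- and rested on the 3 methylated reads of Chd8+/- replicate 2. Neither the Zic1-Zic4 nor the Gsc island held one.

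CpGs elsewhere in the genome showed levels like those of the index CpGs. Among 2741 CpGs with 200 or more reads in all 6 samples, chromosome 18 left out, the CpG most like the Zic1-Zic4 index CpG was chr10:18425435, with a root mean square difference of 0.407 points over the 6 samples. It had 0%, 0.341% and 0.408% in Chd8+/-, against 3.42%, 2.29% and 2.94% in WT, and chr7:112805932 and chr6:63232724 followed. The most like the Etv1 index CpG was chr4:63328092, 0.316 points away, with 0% in all Chd8+/- samples against 2.15%, 1.26% and 1.47% in WT, followed by chr15:76406205 and chr6:52222995. The most like the Gsc index CpG was chr17:5892323, 0.354 points away, with 2.13%, 1.5% and 1.23% in Chd8+/-, against 0.312%, 0.271% and 0.249% in WT, followed by chr15:102889781 and chr4:21689400.

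Of the other genes of these families, Etv5 and Gsc2 could be placed by their promoter letters. Zic5 could not, with 5 CpGs matched against 4 for the next best placement. No promoter letters were at hand for Zic2 and Etv4. At Gsc2 the 16 CpGs within 1 kb of the start averaged 0.883% ± 0.541 in Chd8+/- and 1.07% ± 0.0854 in WT. At 1 of the 2 Etv5 starts placed, 6 CpGs averaged 1.38% ± 1.20 in Chd8+/- and 0.476% ± 0.513 in WT (SD, n = 3 each). The groups overlapped at both genes, and the other Etv5 start had a single CpG, at 0% in all samples.

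At the edge of the coverage rule, the 60 Zic1-Zic4 members read in just 2 samples of the scarcer genotype averaged 1.62% in Chd8+/- and 3.39% in WT, while the 51 CpGs left out because 1 such sample read them averaged 2.70% in Chd8+/- and 1.24% in WT. For Gsc the 33 members just inside averaged 11.2% in Chd8+/- and 9.06% in WT, and the 45 CpGs just outside 3.56% in Chd8+/- and 1.00% in WT. For Etv1 the 10 members just inside averaged 57.2% in Chd8+/- and 60.1% in WT, and the 2 CpGs just outside 93.8% in Chd8+/- and 100% in WT. The Zic1-Zic4 difference thus has the opposite sign on either side of the rule.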

How the data were processed

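RRBS libraries of 3 Chd8+/- and 3 WT neocortex samples were used. The submitters' processing notes name the build mm39 and the tools Bismark 0.20.0, Trim Galore 0.4.4 and SAMtools 1.9; settings and deduplication are not given in the sources used here. Coverage is a count of reads per CpG cytosine, per the file headers, and the shares read as cytosine and thymine were deposited as percent. The authors' conversion statistics, also in percent, gave the unconverted share at cytosines outside CpGs.

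Coverage times percent gave whole methylated reads within 0.02 for all cytosines. Strands were merged by adding reads. Sample means were compared by exact two-sided permutation over samples. Reads per CpG and per island were tested with edgeR 4.0.16 (quasi-likelihood, R 4.3.3), with each sample's coverage as a term and genotype as an effect on the share methylated, over all autosomal CpGs or islands. CpGs at 0% or 100% throughout were left out, and a call needed an adjusted p (Benjamini-Hochberg) below 0.05. Other settings were limma 3.58.1 on log2 of methylated plus 1 over unmethylated plus 1 reads, 20 reads, reads as weights, island gaps of 100 and 500 bp, a replicate block and each sample left out. The edgeR and limma fits were run on simulated counts with planted shifts larger than those at the index CpGs. These runs do not tell whether shifts as small as those would be found, and they did not include the permutation tests. Python 3.11.15 was used elsewhere.

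The members and lists were chosen with earlier results of these data known. CpGs named were, per interval, the index CpG, those within 100 bp, the 3 with the highest mean level and the 3 with the largest difference among CpGs with 10 or more reads in all 6 samples, and, over the genome, the 3 most alike to each index CpG. Promoter letters of RefSeq (GRCm38.p6) were placed by CpG spacing where all listed CpGs matched and the lead over the next best was at least 3, chosen after the data were seen, as were the counts by strand and the edge of the coverage rule. Exons, introns and UTRs were not used here, since the annotation at hand follows another build than the coordinates.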

Additional observations from a re-analysis of the deposited data

How the results depend on the processing

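Of 75 alternatives of the 6 means, 65 kept the direction. The Zic1-Zic4 interval turned to 1.12 points with 20 reads as the minimum and to 0.882 points with reads as weights. The Etv1 neighbours turned to 0.113 points at 20 reads, 0.0459 points with gaps of 100 bp (4 neighbours) and 0.278 points with gaps of 500 bp, and the Etv1 interval to -1.48 points at 20 reads. The cause was not tested. With each sample left out in turn, the neighbour difference ran from -0.501 to 0.316 points for Zic1-Zic4 (0.316 without WT replicate 3), from -0.443 to 0.0165 for Etv1 (0.0165 without Chd8+/- replicate 3) and from -0.0217 to 0.817 for Gsc (-0.0217 without Chd8+/- replicate 3). The interval difference ran from -0.734 to 0.217 points for Zic1-Zic4 (0.217 without WT replicate 3), from 0.390 to 1.40 for Etv1 and from 0.300 to 1.66 for Gsc. The number of CpGs called over all autosomes ran from 0 to 1, with 1 called without Chd8+/- replicate 1 (adjusted p = 0.0404 by edgeR) and 1 without Chd8+/- replicate 3 (0.0482), neither an index CpG. The number of islands called was 0 each time.

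In the fit with a replicate block, 0 CpGs were called by edgeR (lowest adjusted p 0.545), as were 0 islands, and the paired exact test of the means cannot go below p = 0.25. The deviations of same-numbered samples correlated at -0.0150, -0.0198 and 0.00414 over 14509 islands, against -0.0114 to 0.0278 for samples of different numbers. Most islands had levels under 2%, where counting error is large, so these correlations cannot decide whether same-numbered samples were paired. The labels do not say. The neighbours had medians of 30.5 to 49 reads, which limits the precision of single CpGs.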

Other observations

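A CpG 8556 bp after the Zic1-Zic4 index CpG, at chr9:91268880, had levels with the same direction, and it is named here after its values were seen. It had 0%, 0% and 0.535% in Chd8+/-, against 1.56%, 2.96% and 2.70% in WT, from 187 to 257 reads (edgeR unadjusted p = 0.00243, adjusted 1.00). Of its neighbours, the CpG at chr9:91268851 had 6.85%, 0% and 0% in Chd8+/-, against 4.12%, 0% and 0% in WT, and the CpG at chr9:91268853 had 4.21%, 4.85% and 0% in Chd8+/-, against 0%, 4.85% and 0% in WT. The groups overlapped at both.

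At the Zic1 start, 7 CGs before the start were listed in WT replicate 3 alone, at 17 or 18 reads. Of these, 1 had 5 of 18 methylated reads and the other CGs had none. The CG 21 bp after the start was read in all 6 samples, with 6 of 82, 0 of 51 and 0 of 73 methylated reads in Chd8+/-, against 0 of 88, 6 of 48 and 0 of 103 in WT, so that 1 sample of each genotype held all its methylated reads.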
